A study of Mus musculus with 4 samples.

Results

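The T cell receptor (TCR) alpha variable genes are the V segments that give the alpha chain of an αβ T cell its variable part. They were taken as the genes of the count table whose symbol starts with Trav, 83 of its 17561 genes. All 83 lay on the plus strand of mouse chromosome 14, between positions 52427928 and 53977678 of mm10. The annotation classed 76 as functional V genes and 7 as pseudogenes. In the single-cell data 62317 UMIs (counts of single captured RNA molecules, by their molecular barcode) were assigned to them, of which 0.815% were on pseudogenes. Of the 83 members, 57 had at least 100 UMIs and 10 had 10 or fewer. In cells with 1 alpha chain called by the receptor libraries, 12 of the members were called in none.

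The cells were CD8+ T cells sorted from the BM of myeloma-bearing recipients 4 weeks after SCT, in 4 libraries of 5 pooled mice each. Recipients on a C57BL/6 background, wild type or carrying the CRBN transgene that lets mouse cells respond to lenalidomide, had received BM and T cells from matched donors. The groups were isotype control with vehicle, αTIGIT with vehicle, isotype control with lenalidomide, and αTIGIT with lenalidomide, where the antibody ran from the day of transplantation and the drug from day 14. The libraries carry numbers from 1 to 4 in the files and no source read here ties a number to a treatment, so values are given by library number and no treatments were compared.

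In the thymus each T cell joins 1 V segment of the alpha locus to 1 of the J segments (Traj) that lie downstream, and bases can be trimmed or added at the junction, which codes for the third complementarity determining region (CDR3). The joined V and J segments are spliced to the constant gene Trac. Because the alpha locus can rearrange repeatedly on both chromosomes, a T cell can carry 2 rearranged alpha alleles. In this mouse strain a part of the locus is present in several copies, whose genes bear the letters D or N in their names. The level of a Trav gene in a cluster therefore counts the cells that chose it, as well as how much receptor RNA each cell holds, and these cannot be told apart in a sum over cells.

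The count table held 11754 cells in 8 clusters named by the authors. The libraries held 4237, 2003, 1725 and 3789 cells, with a median of 7115 to 7669 UMIs per cell. An alpha chain was called from the receptor libraries in 7172 cells, as 1 chain in 6260 and as 2 chains in 912. Barcode sequences shared between libraries numbered 56, and none of the 28 with a receptor in both cells had the same clonotype. The αβ T cell markers Trac, Cd3d, Cd3e, Cd3g, Cd8a and Cd8b1 were all detected in every cluster, at a summed 3883 to 8145 CPM (UMIs scaled to the total UMIs of the group), whereas 6 γδ T cell genes summed to 35.1 to 200.4 CPM. The 6 macrophage genes summed to 1513 CPM in GzmA+ Tex and to 6.97 to 85.9 CPM elsewhere, and their part in the values of GzmA+ Tex was not tested. All intervals are 95% intervals of counting error. Each library is a pool without a replicate, so no test between groups was made.

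Summed over all members, Trav RNA was lowest in naive T cells (Tn) at 391 CPM (interval 379 to 403) and highest in TIM-3+ Tex at 742 CPM (726 to 759). In Tn the 4 libraries gave 360, 417, 403 and 386 CPM, and in TIM-3+ Tex they gave 736, 744, 616 and 762 CPM. Every TIM-3+ Tex library lay above every Tn library, and library 3, with 31 TIM-3+ Tex cells, was the lowest of them. The log2 ratio of TIM-3+ Tex to Tn was 0.93 (0.87 to 0.98), and was 1.03, 0.84, 0.61 and 0.98 within the libraries. Central memory cells (Tcm) stood at 458 CPM, GzmB+ Teff at 541, GzmA+ Tex at 559, cycling cells at 666, TIGIT+ Teff at 691 and transitory Teff at 712 CPM. When each clonotype was counted by 1 cell per library and cluster, the log2 ratio fell to 0.69 (0.56 to 0.81).

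The constant gene Trac, which every complete alpha transcript contains, was higher in TIM-3+ Tex than in Tn by a log2 ratio of 1.28 (1.21 to 1.36). Relative to it, the members gave 206 Trav UMIs per 100 Trac UMIs in Tn (196 to 218) and 161 in TIM-3+ Tex (155 to 167). The lowest value was 147 in GzmA+ Tex (140 to 155) and the highest 214 in transitory Teff (206 to 222). In single libraries the TIM-3+ Tex value was 147, 157, 155 and 188, and the Tn value 213, 196, 216 and 203, so the point values did not overlap. The TIM-3+ Tex and Tn intervals did overlap in library 3 (123 to 195 and 194 to 240) and in library 4 (176 to 200 and 184 to 224). They were apart in library 1 (140 to 155 and 190 to 239) and in library 2 (144 to 171 and 176 to 218). Among the other receptor genes listed, the beta chain constant genes Trbc1 and Trbc2 had log2 ratios of 1.30 and 1.18 between TIM-3+ Tex and Tn, and the CD3 chains Cd3e and Cd3g 1.40 and 1.37. Cd3d and Cd247 differed less, with log2 ratios of 0.32 and 0.40. The genes of receptor assembly Ptcra, Rag1 and Rag2 had 0 UMIs in both clusters, and Dntt, which adds bases at the junction, had 2 UMIs in Tn and 0 in TIM-3+ Tex.

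At least 1 Trav UMI was found in 94.9% of TIM-3+ Tex cells (93.4 to 96.1) and in 72.1% of Tn cells (69.6 to 74.4). With every cell thinned to 2500 UMIs, the shares were 79.1% (76.5 to 81.5) and 49.9% (47.1 to 52.6). Some called genes have no row in the count table. Of cells with 1 alpha chain, 649 of 896 in Tn and 367 of 431 in TIM-3+ Tex had a gene with a row. Among these, 84.0% in Tn and 95.4% in TIM-3+ Tex held a UMI of the called gene. How far genes without a row affect these shares and the summed levels above was not tested.

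The receptor calls allow each member to be checked against the gene called as rearranged in a cell. In cells with 1 alpha chain 87 TRAV genes were called, of which 71 had a row in the count table. Among the 5028 cells whose gene had a row, 89.3% (88.4 to 90.2) held a UMI of that same gene. Of the 4890 cells with 1 leading Trav gene by UMIs, 82.3% (81.2 to 83.4) had that gene called. In 42 of the 52 genes called in at least 20 cells, 90% or more of the cells held the gene's own UMI. Trav12-2 was found in 496 of 499 cells with a TRAV12-2 call, at a mean of 6.81 UMIs, and Trav16n in 467 of 506, at a mean of 3.54 UMIs.

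A few members were counted in hardly any of the cells that use them. TRAV9D-3 was called in 165 cells of 154 clonotypes, and 0 of them held a Trav9d-3 UMI, which allows a share of up to 1.82% when, here and for later counts of 0, the limit is set at 3 cells (the Clopper-Pearson bound is 2.21%). For TRAV7D-2 it was 7 of 91 cells, for TRAV6-3 it was 5 of 22, for TRAV9N-4 it was 7 of 21, and for TRAV6-5 it was 36 of 64. These were the 5 genes with the lowest match among those with a row that were called in at least 20 cells. Genes with no row at all in the count table used here, led by TRAV6-6 with 202 cells, TRAV14D-1 with 154 and TRAV3D-3 with 147, accounted for 1232 cells, or 19.7% of those with 1 alpha chain.

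These genes have near-identical copies. The transcripts of Trav9d-3 and Trav9n-3 were identical over all 575 bases, those of Trav6-6 and Trav6d-6 over 344, and those of Trav3d-3 and Trav3n-3 over 427. Of the 128 Trav genes in the annotation, 40 had no stretch of 31 bases of their own, meaning that each such stretch also occurred in another annotated Trav gene. Genes other than Trav genes were not compared. Only 5 of these 40 had a row in the count table, with at most 18 UMIs. Of the 17 called genes of this kind, 15 had no row, so no UMI of theirs could be counted. For the other 2, TRAV9D-3 and TRAV12D-1, 1 of 184 cells held the gene's own UMI. Among called genes with a row for which more than 0 and under 20% of the stretches were unique, 72.4% of 606 cells did, for 20% to under 50% it was 3088 of 3252 cells, and for 50% and more it was 97.7% of 986 cells. For the genes with an identical copy only the receptor call is read below. As the transcripts do not differ, a call of such a gene may also include its copy.

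**Figure D1:**
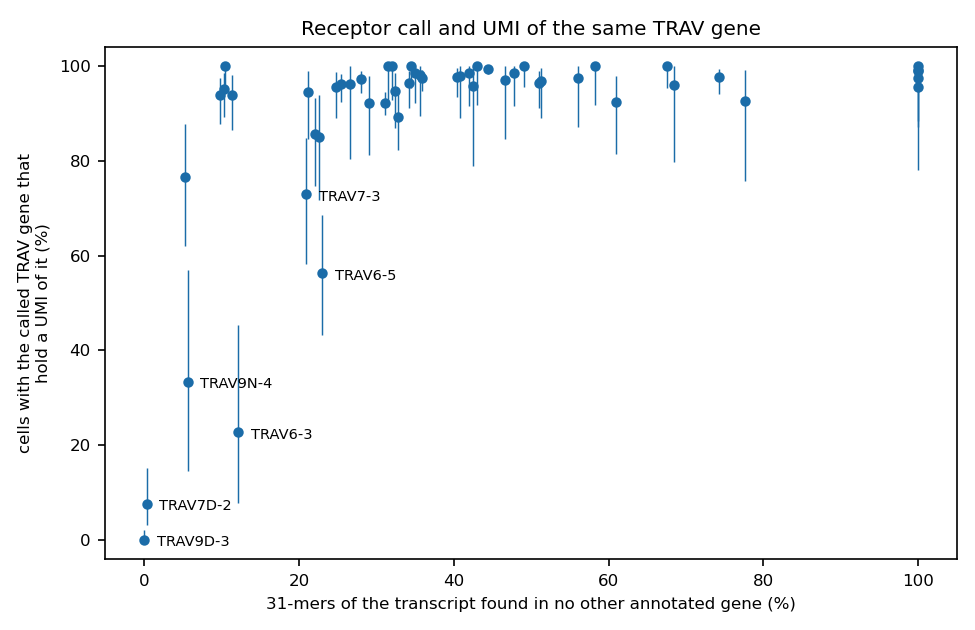
Each point is 1 of the 52 TRAV genes called in at least 20 cells with a row in the count table. The x axis gives the percent of the 31-base stretches of its transcript found in no other annotated Trav gene, the only genes compared. The y axis gives the percent of cells with the gene called that hold a UMI of it, with 95% Clopper-Pearson intervals. TRAV9D-3, with no unique stretch, is at 0, TRAV7D-2 is at 7.69%, and 42 of the 52 genes are at 90% or more.

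How little sequence can suffice is shown by the TRAV13-1 copies, which matter for a clone described further on. Trav13-1 (chr14:53545014-53545525), Trav13n-1 (chr14:53162399-53162910) and Trav13d-1 (chr14:52851290-52851866) are V genes with a leader and a V exon, all on the plus strand. Trav13-1 and Trav13n-1 were identical at 318 of 331 transcript positions, and Trav13n-1 and Trav13d-1 at 330 of 331. The same 120-base window of their GENCODE transcripts in mm10 is given with the 8 positions at which any of them differ in capitals:
Trav13-1: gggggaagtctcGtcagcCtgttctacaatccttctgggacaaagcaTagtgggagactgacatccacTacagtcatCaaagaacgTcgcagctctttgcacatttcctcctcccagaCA
Trav13n-1: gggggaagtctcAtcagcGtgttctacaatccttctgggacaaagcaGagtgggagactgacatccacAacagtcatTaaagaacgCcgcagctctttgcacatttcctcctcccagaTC
Trav13d-1: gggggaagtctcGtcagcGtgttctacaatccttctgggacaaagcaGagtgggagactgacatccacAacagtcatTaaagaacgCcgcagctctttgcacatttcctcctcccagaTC

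With 10.3% and 9.84% of stretches unique, Trav13n-1 and Trav13d-1 were still counted in 100 of 105 and 108 of 115 cells with their call. In 13 of the TRAV13N-1 cells a Trav13d-1 UMI was also counted.

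Use per cell and per clonotype was counted in the 6260 cells with 1 alpha chain. Cells with 2 alpha chains were left out, among them a clonotype of 100 cells with TRAV13N-1 and TRAV12D-3. These 2 genes would rank higher with such cells. By receptor call in cells with 1 alpha chain, the genes used by the most cells were TRAV16N with 506, TRAV12-2 with 499, TRAV9-1 with 248, TRAV13-1 with 240 and TRAV9-4 with 206. Next were TRAV6-6 with 202, TRAV7-5 with 170, TRAV9D-3 with 165, TRAV14D-1 with 154 and TRAV3D-3 with 147. By clonotype, counted once per library, the order changed. TRAV12-2 led with 259 of 3983 clonotypes, followed by TRAV13-1 with 186, TRAV6-6 with 162, TRAV16N with 161, TRAV9D-3 with 154, TRAV3D-3 with 138, TRAV16 with 118, TRAV12D-3 with 110, TRAV3-3 with 95 and TRAV19 with 94. TRAV9-1 was used by 248 cells of only 29 clonotypes and TRAV9-4 by 206 cells of 48, whereas TRAV9D-3 had nearly as many clonotypes as cells.

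In Tn and Tcm use was spread broadly. The effective number of TRAV genes, the inverse of the chance that 2 cells drawn share the gene (each drawn from all cells), was 39.1 per cell in Tn (35.7 to 42.6) and 42.8 in Tcm (39.97 to 45.7). It was 36.5 in GzmB+ Teff, 24.9 in GzmA+ Tex, 24.4 in TIGIT+ Teff, 24.3 in transitory Teff and 22.1 in cycling cells. TIM-3+ Tex had the lowest, 6.93 (5.69 to 8.17). Its libraries gave 3.21, 5.40, 4.00 and 8.82, against 31.1 to 40.4 in Tn. An effective number cannot exceed the number of cells counted. The third value, from 12 cells, could therefore not have reached the Tn values. The other libraries, with 71 to 237 cells, lay below every Tn library. Without library 1 the value was 13.3. When each clonotype was counted once, TIM-3+ Tex reached 22.6 (13.2 to 31.9) from 91 clonotypes, and Tn 39.2 from 891. The measure depends on how many are counted, and the share of the difference due to this was not tested. The Teff, Tex and cycling cells together reached 42.5 (39.1 to 45.9), beside 42.8 (40.5 to 45.2) for Tn and Tcm together.

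**Figure D2:**
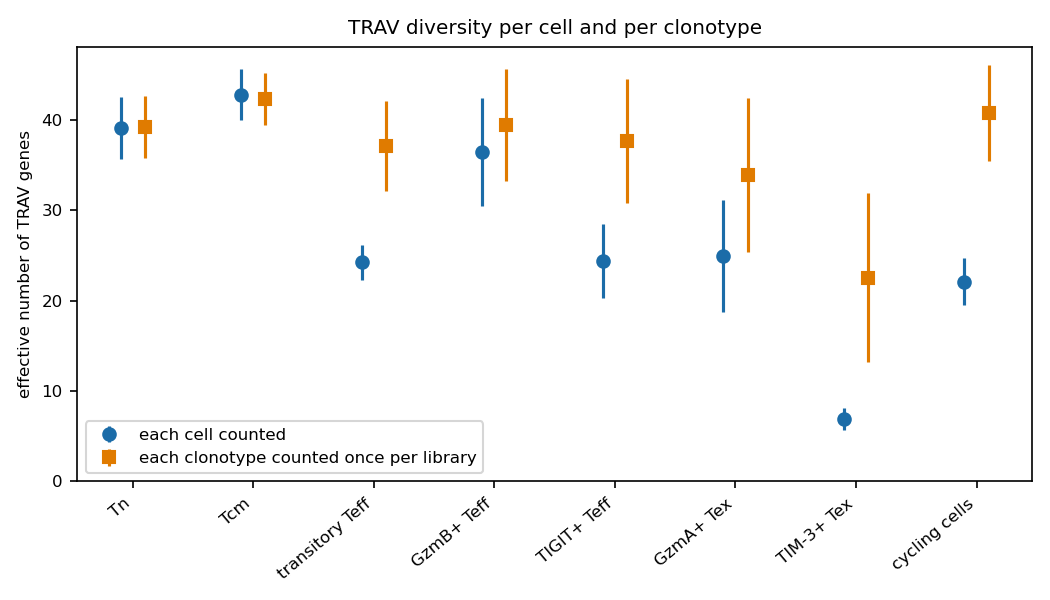
The effective number of TRAV genes (y axis) is plotted for the 8 clusters over all 4 libraries, with each cell counted (circles) or each clonotype counted once per library (squares), and 95% jackknife intervals of counting error. In Tn the values are 39.1 and 39.2, and in TIM-3+ Tex 6.93 and 22.6.

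The narrow use in TIM-3+ Tex centred on TRAV16N (gene at chr14:53351028-53351621). It was called in 33.2% of 431 TIM-3+ Tex cells (28.7 to 37.8) and in 14.3% of 91 clonotypes (7.83 to 23.2). By library it was called in 122 of 237 cells, 7 of 71, and 14 of 111 in libraries 1, 2 and 4, and in 0 of 12 in library 3, so library 1 was high. Without library 1 the share was 10.8%. In Tn TRAV16N was called in 4.35% of cells and in Tcm in 3.02%, with 2.497% to 7.49% in single libraries, and in Teff, Tex and cycling cells together it was called in 5.43% of clonotypes.

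Trav16n UMIs were likewise highest in TIM-3+ Tex. The gene stood at 209, 36.7, 15.6 and 66.9 CPM in TIM-3+ Tex of libraries 1 to 4, and at 10.9, 6.39, 14.9 and 10.1 CPM in Tn. The value in library 3 rested on 5 UMIs, and its interval of 5.07 to 36.5 CPM overlapped the Tn values. Trav12-2 (chr14:53616315-53616914) was the highest member in 6 of the 8 clusters, at 35.9 CPM in Tn, 47.0 in Tcm, 65.2 in GzmB+ Teff, 82.3 in TIGIT+ Teff, 80.5 in GzmA+ Tex and 84.2 in cycling cells. Trav7-5 led transitory Teff at 79.1 CPM and Trav16n led TIM-3+ Tex at 125 CPM.

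Levels of single members also differed between libraries. Trav7-5 (chr14:53530786-53531313) in TIM-3+ Tex was 8.95, 255, 212 and 3.78 CPM in libraries 1 to 4, and in Tcm it was 12.6, 20.1, 19.6 and 12.8. Trav13n-1 was at 45.8, 1.67, 0 and 195 CPM in TIM-3+ Tex, and at 7.29, 5.03, 1.99 and 5.19 in Tcm. Trav12-2 was at 163, 44.5, 9.37 and 61.7 CPM in TIM-3+ Tex. Each library thus had its own high genes among TIM-3+ Tex cells: Trav16n and Trav12-2 in library 1, Trav7-5 in libraries 2 and 3, and Trav13n-1 in library 4.

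**Figure D3:**
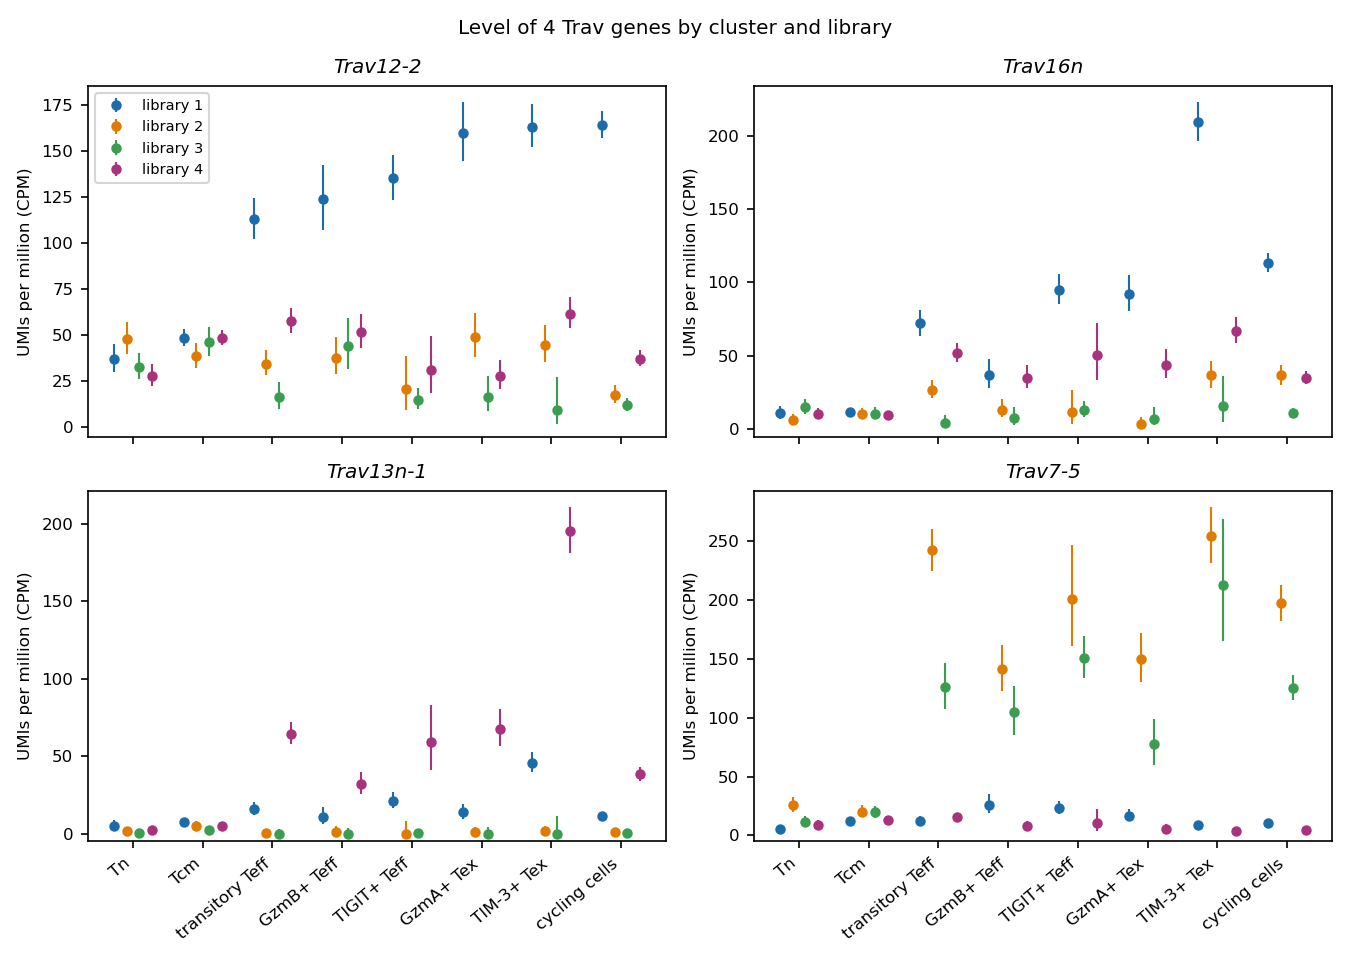
CPM (y axis) of Trav12-2, Trav16n, Trav13n-1 and Trav7-5 in the 8 clusters (x axis), 1 point per library with its exact Poisson 95% interval. Trav7-5 lies between 5.47 and 25.6 CPM in the 4 Tn samples, and in TIM-3+ Tex it lies at 255 and 212 in libraries 2 and 3 but at 8.95 and 3.78 in libraries 1 and 4.

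Over all genes with at least 100 UMIs, the same contrast was made for each library against the other 3. In Teff, Tex and cycling cells, 12, 7, 15 and 14 of 51 members were more than 2-fold higher in libraries 1 to 4, beside 0.587%, 0.379%, 1.66% and 0.36% of 10557 genes. More than 2-fold lower were 22, 22, 20 and 17 members, beside 0.502%, 1.49%, 1.68% and 1.31% of genes. In Tn and Tcm 1, 1, 2 and 0 of 46 members were more than 2-fold higher, beside 0.266%, 0.117%, 0.479% and 0% of 9404 genes, and 2, 3, 5 and 3 were lower, beside 0.0957%, 0.755%, 0.564% and 0.51%.

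TIM-3+ Tex was also set against all other cells. There 6 of 57 members were more than 2-fold higher, beside 2.34% of 10991 genes, and 26 were more than 2-fold lower, beside 6.9%. The median log2 ratio was -0.80 over the members and -0.02 over all genes. The 6 were Trav13n-1 with a log2 ratio of 2.63, Trav16n with 1.74, Trav8-1 with 1.69, Trav9-2 with 1.15, Trav9-4 with 1.12 and Trav7-4 with 1.07. Trav16n and Trav9-2 were higher in each of the 4 libraries. Trav8-1 was higher in library 2 alone, with a log2 ratio of 2.33 there. Without library 3 the count was 3.

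The other clusters were set against all other cells in the same way. In Tn 2 members were more than 2-fold higher, beside 1.66% of genes, and 15 lower, beside 15%. In Tcm 9 were higher, beside 2.65%, and 13 lower, beside 11.2%. In transitory Teff 7 were higher, beside 1.02%, and 10 lower, beside 5.72%. In GzmB+ Teff 3 were higher, beside 1.63%, and 6 lower, beside 6.41%. In TIGIT+ Teff 5 were higher, beside 13.4%, and 10 lower, beside 2.47%. In GzmA+ Tex 2 were higher, beside 2.04%, and 14 lower, beside 2.46%. In cycling cells 6 were higher, beside 7.38%, and 8 lower, beside 4.43%. The 26 members lower in TIM-3+ Tex were thus the highest count in either direction among the 8 clusters.

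Between Tn and Tcm, shares were compared over clonotypes for the 49 genes with at least 20. TRAV12D-3 differed most, with 5.39% of Tn clonotypes and 1.78% of Tcm clonotypes, and it was lower in Tcm in all 4 libraries, by 3.24 to 5.21 percentage points. TRAV19 was used by 2.02% of Tn and 3.26% of Tcm clonotypes and TRAV5-4 by 1.46% and 2.85%, higher in Tcm in each library. In all, 8 genes were higher and 3 lower in Tcm in each library. Between Tn and Tcm together and the Teff, Tex and cycling cells, 2 of 61 genes were higher and 6 lower in the latter in each library. TRAV7-5 was used by 1.37% of clonotypes in Tn and Tcm and 2.33% in the others, and TRAV19 by 2.87% and 1.21%. No test was made of these differences. How many genes would go the same way in all 4 libraries by chance was not worked out, so the counts are a description.

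To follow single rearrangements, cells of a library with the same beta chain genes and CDR3 nucleotides were grouped into clones, 31 of which had at least 20 cells, 29 of them with 1 beta chain. The CDR3 of the alpha chain is given below for leading clones, 5′ to 3′ as in the deposited receptor table. Capitals mark bases that continue neither the germline V nor the germline J sequence:
TRAV9-4 TRAJ50: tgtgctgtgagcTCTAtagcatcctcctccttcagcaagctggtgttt
TRAV16N TRAJ49: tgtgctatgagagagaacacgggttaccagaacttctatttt
TRAV9-1 TRAJ45: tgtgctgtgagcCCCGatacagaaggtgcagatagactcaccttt
TRAV9-1 TRAJ23: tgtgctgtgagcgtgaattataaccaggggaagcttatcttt
TRAV13N-1 TRAJ9: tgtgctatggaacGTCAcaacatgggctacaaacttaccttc
TRAV12D-3 TRAJ11: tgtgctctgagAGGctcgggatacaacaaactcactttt
TRAV7D-5 TRAJ38: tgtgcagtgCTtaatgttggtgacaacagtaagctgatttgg
TRAV12-2 TRAJ27: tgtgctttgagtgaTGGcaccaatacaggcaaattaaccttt

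The TRAV16N TRAJ49 chain carried no such base. It was found in 254 cells of all 4 libraries, with 5 beta chain sets. The TRAV9-4 TRAJ50 chain, with 4 such bases, was found in 140 cells of library 4 with 1 beta chain. The largest clonotype, counted over both chains, was the TRAV16N TRAJ49 one with 190 cells, of which 170 were in library 1 and 79 in TIM-3+ Tex, 14.99% of the TIM-3+ Tex cells with an alpha chain. Of the clonotypes over 100 cells, the others were TRAV9-4 TRAJ50 with 133 cells, all in library 4, and TRAV9-1 TRAJ45 with 124 cells, 110 of them in library 2. The TRAV16N TRAJ49 clonotype held 0 cells in Tn and 0 in Tcm. In Tn the largest clonotype, with TRAV3-3, had 2 cells, and in Tcm the largest, with TRAV7D-3 and TRAV1, had 5. In TIGIT+ Teff the largest used TRAV2 with TRAJ18 and had 18 cells, and in GzmA+ Tex the largest used TRAV12-2 and had 8.

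In cells outside clones of 20 or more, and with a beta chain, Trav16n stood at 51.3 CPM in TIM-3+ Tex (37.7 to 68.2), against 166 CPM over all TIM-3+ Tex cells with a beta chain. Trav13n-1 stood at 12.0 against 130 CPM, and Trav7-5 at 39.3 against 59.1 CPM. Not every gene was lower outside such clones. Trav2 stood at 52.4 against 12.8 CPM, and Trav13-1 at 18.6 against 9.84 CPM. In Tn cells outside such clones, and with a beta chain, Trav16n stood at 10.4 CPM (8.42 to 12.7). There Trav13n-1 stood at 2.19, Trav7-5 at 10.9, Trav2 at 5.59 and Trav13-1 at 29.4 CPM. TRAV16N was called in 6.59% of 91 TIM-3+ Tex cells outside such clones.

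In several clones UMIs of Trav genes were counted that were not called in them. In clone 1 (library 4, 204 cells, TRAV9-4 called) Trav9-4 UMIs were found in 88.7% of cells, Trav3-3 UMIs in 59.3% and Trav16n UMIs in 55.4%. Neither of the latter was called in any of the 140 cells with an alpha chain, and in the other cells of the library Trav3-3 was found in 8.76% and Trav16n in 10.4%. In clone 2 (library 1, 184 cells, TRAV16N called) Trav16n was found in 92.9% of cells, Trav3-3 in 52.2% and Trav9-4 in 92 cells. Clones 19 and 30, which also used TRAV16N but other beta chains or another library, held the same pair, with Trav3-3 in 56.4% and 66.7% and Trav9-4 in 46.2% and 61.9% of their cells. Not all large clones with TRAV16N did. In clone 16 (library 4, 42 cells, 2 beta chains), where TRAV16N was called in all 42 cells, Trav3-3 and Trav9-4 were each found in under 30% of cells, and Trav16d-dv11 was found in 35.7%.

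In smaller clones the pairs were not alike. Among 173 cells with a TRAV16N call in clones under 20 cells, 8 held Trav3-3 and 2 held Trav9-4. Among 65 such cells with a TRAV9-4 call, 28 held Trav3-3, or 43.1% (30.8 to 56.0), over 42 beta chains, and 0 held Trav16n, which allows a share of up to 4.62%. Trav3-3 starts 10.2 kb before Trav9-4. In the opposite direction, 0 of 101 cells with a TRAV3-3 call held Trav9-4, which allows a share of up to 2.97%.

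In clone 3 (library 2, 165 cells, TRAV9-1 called) Trav7-5 was found in 90.9% of cells and called in none of 117. In clone 7 (library 1, 100 cells) the called TRAV7D-5 has no row, and Trav9-2 was found in 95 cells but called as the second chain in 29.9% of those with an alpha chain. In clone 15 (library 3, 47 cells, TRAV6-5 called) Trav14-2 was found in 61.7%, and in clone 18 (library 2, 40 cells, TRAV7-5 called) Trav14-1 in 60.0%. Among the 29 clones with 1 beta chain, 10 had a Trav gene in at least 30% of cells that was called in under 30% of them. Whether a second allele, RNA from other cells or the assignment of reads gives these UMIs was not tested.

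**Figure D4:**
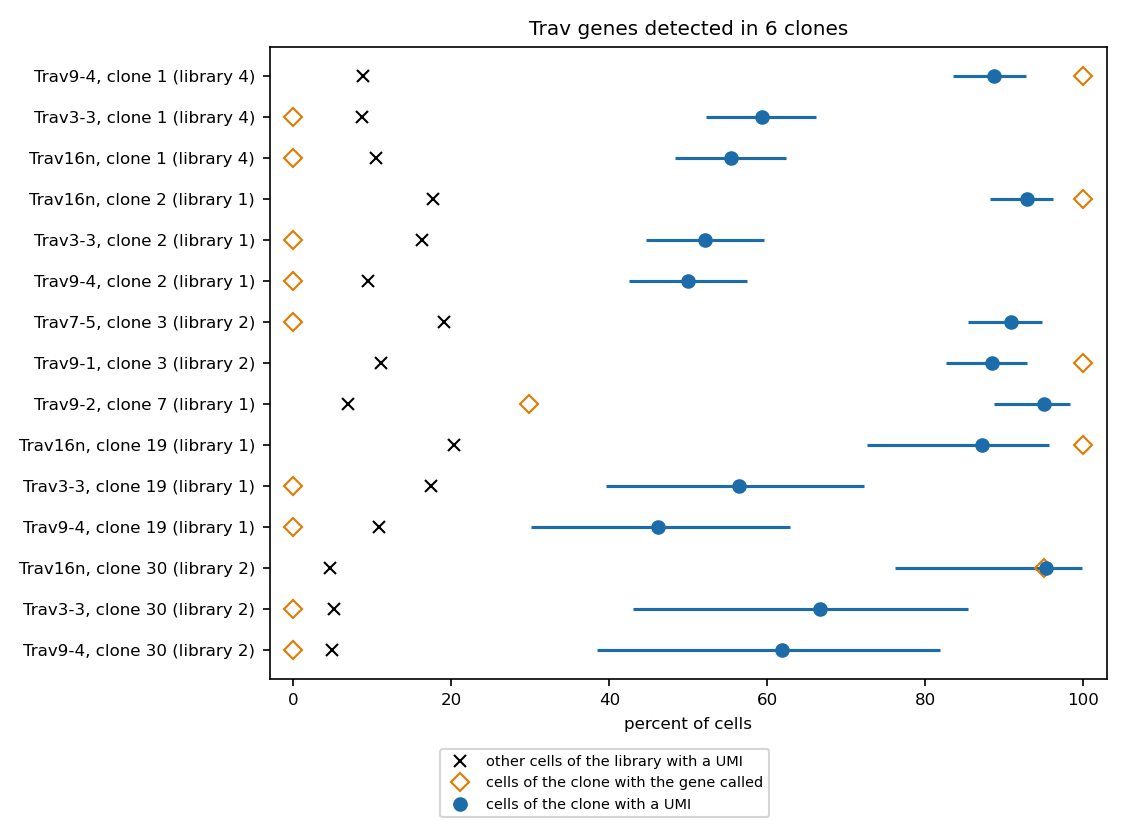
For each Trav gene found in at least 30% of the cells of 6 clones (y axis), the percent of the clone's cells with a UMI is shown with its 95% Clopper-Pearson interval (circles), with the percent of the library's other cells with a UMI (crosses) and of the clone's cells in which the gene was called (diamonds, over cells with an alpha chain). Trav7-5 in clone 3 lies at 90.9% with a UMI and at 0 called.

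Where 2 alpha chains were called, the counts could be checked for both. In 278 cells both genes had a row, differed and had at least 20% unique stretches. UMIs of both were found in 251, or 90.3% (86.2 to 93.5), of 1 in 27 and of neither in 0. Cells with 2 alpha chains made up 11.5% of Tn cells with an alpha chain (9.56 to 13.6) and 18.2% of TIM-3+ Tex cells (15.01 to 21.8). Of these 96 TIM-3+ Tex cells, 63 belonged to 1 clonotype, with TRAV13N-1 TRAJ9 and TRAV12D-3 TRAJ11, so the higher share there rests largely on that clonotype.

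Clone 4 (library 1, 153 cells) had 2 beta chains, of which 1 was that of clone 2 and 1 that of clone 9. TRAV12-2 was called in 95 of its cells and TRAV16N in 58. By UMIs 93 held Trav12-2 without Trav16n, 51 held Trav16n without Trav12-2, 5 held both and 4 neither. The source of this pattern was not tested.

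Clone 11 (library 4, 67 cells, TRBV2) paired 1 beta chain sequence with many alpha chains. The 65 cells with an alpha chain held 18 alpha sequences, 15 of them with TRAJ34. All 15 were 42 bases long, 10 with TRAV13-1 and 5 with TRAV13N-1. Of the other 28 clones with 1 beta chain, none had more than 4 alpha sequences seen in at least 2 cells, against 12 in clone 11. Its 4 most frequent alpha sequences are shown because they differ in V gene and at the junction only:
TRAV13-1 TRAJ34: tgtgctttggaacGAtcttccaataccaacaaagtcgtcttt
TRAV13N-1 TRAJ34: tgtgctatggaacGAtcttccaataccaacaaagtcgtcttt
TRAV13N-1 TRAJ34: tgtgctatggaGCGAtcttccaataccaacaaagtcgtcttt
TRAV13-1 TRAJ34: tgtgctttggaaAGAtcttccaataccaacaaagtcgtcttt

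They were found in 22, 11, 7 and 6 cells. The UMIs followed the calls. All 40 cells with TRAV13-1 alone held Trav13-1 and none held Trav13n-1, and all 23 cells with TRAV13N-1 alone held Trav13n-1 and none held Trav13-1. The clone lay mostly in transitory Teff with 35 cells and in cycling cells with 21.

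Receptors of unconventional T cells were rare. The counts here are of cells with 1 alpha chain. TRAV11, which joined to TRAJ18 marks invariant NKT cells, was called in 6 cells, none with TRAJ18. TRAV1 joined to TRAJ33, the pair of MAIT cells, was called in 8 cells, of which 6 were in library 4 and shared 1 sequence with TRBV19. That sequence had 39 bases, 4 of them outside the germline V and J sequence. The sequence of the other 2 cells, which had TRBV10 and TRBV12-1, had 36 bases, 0 of them outside it. Whether any of the 8 cells is a MAIT cell was not tested.

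Cells without a receptor call held Trav RNA too. Of 3793 cells with no TCR call, 89.3% (88.3 to 90.3) held at least 1 Trav UMI, and of 7172 with an alpha chain 84.0% (83.2 to 84.9) did. The median depths were 10989 and 6932 UMIs. Thinned to 2500 UMIs per cell the shares were 67.5% and 66.3%. In the 789 cells with a beta chain alone the share was 61.6% (58.1 to 65.0) without thinning and 40.6% (37.1 to 44.1) with it. Among the 481 TIM-3+ Tex cells without a call, the leading gene by UMIs was Trav16n in 14.3% (11.3 to 17.8), Trav12-2 in 12.7% and Trav13n-1 in 10.4%, and among the 431 with 1 alpha chain these were 26.7% (22.6 to 31.1), 12.3% and 6.26%.

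The place of a TRAV gene in the locus went with the place of its TRAJ partner. Over 3983 clonotypes, the Spearman correlation of the 2 start positions was -0.50, and -0.53, -0.46, -0.50 and -0.49 in libraries 1 to 4. Clonotypes share the locus and the genes, so this is a description. For a gene with an identical copy, the position used is that of the name called. TRAV19, 310 kb before the first TRAJ, was joined to TRAJ genes at a median of 11.4 kb into the TRAJ cluster, TRAV12-2, at 539 kb, at 26.5 kb, and TRAV2, at 1588 kb, at 41.7 kb. The 10 nearest of 61 genes had medians of 11.4 to 16.8 kb, and the 10 farthest 31.1 to 46.3 kb.

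**Figure D5:**
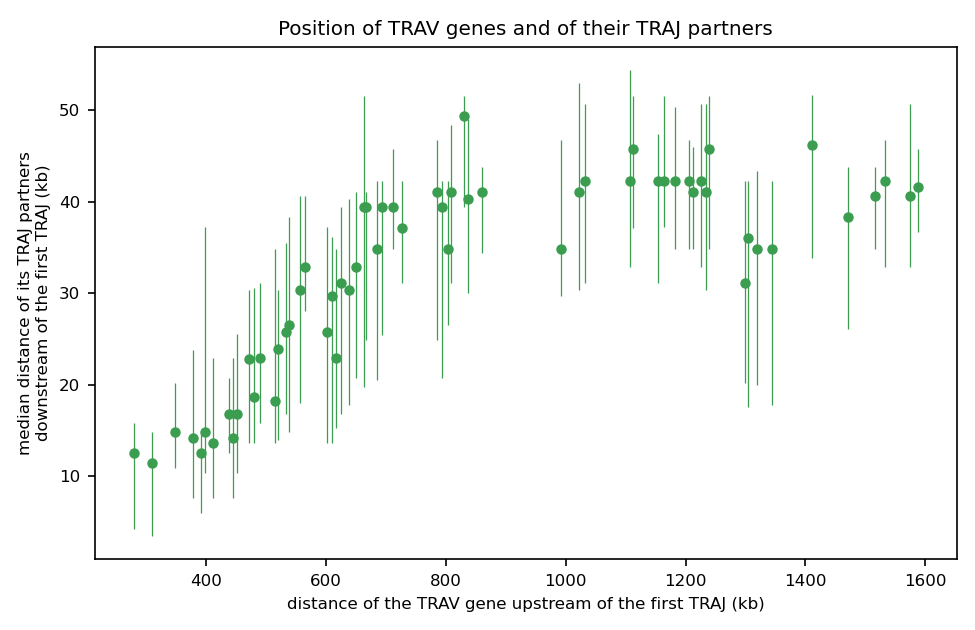
Each point is 1 of 61 TRAV genes with at least 20 clonotypes. The x axis is the distance in kb from its start to the start of the first TRAJ gene, and the y axis the median distance in kb of its TRAJ partners from that point, with the quartiles as bars. TRAV19 lies at 310 and 11.4 kb and TRAV2 at 1588 and 41.7 kb.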

How the data were processed

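CD8+ T cells were sorted from BM, and gene expression and TCR libraries were made from the 5′ end of transcripts. Per the submitters' processing notes, reads were processed with Cell Ranger 7.00 against mm10. The authors downsampled reads to similar depth, kept cells by UMI number, mitochondrial share and Cd3e/g and Cd8a expression, and clustered them. The deposited expression values are raw UMI counts per gene and cell. The deposited mitochondrial share is a fraction computed by the authors. The deposited cluster number is a score assigned by the authors' Leiden clustering. The receptor table lists, per cell, alpha and beta chains that came from cellranger vdj by way of scRepertoire. Handling of doublets is not given in the sources used here, and none were removed.

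Gene symbols, positions and transcripts came from the GENCODE annotation of mm10, and receptors were joined to cells by barcode and library. CPM are UMIs scaled to all UMIs of the group. Intervals are exact Poisson (CPM), conditional binomial (ratios), Clopper-Pearson (shares) and jackknife (effective numbers), and cover counting error only. Functions were tested on simulated counts. Thinning drew each cell to 2500 UMIs with seed 7. Uniqueness used 31-base stretches, compared among annotated Trav genes only. Named were the 10 TRAV genes with most cells and with most clonotypes, the highest gene of each cluster, those of the largest clonotypes, Trav11 and Trav1, the largest clonotype of each cluster, and the 5 genes with the lowest match. Genes of the clone descriptions were named after their values were seen. The members and lists were chosen with earlier results of these data known. Python 3 with numpy, scipy, pandas and Biopython was used. Tried alternatives were each library left out, thinning, Leiden numbers in place of cluster names, clonotypes counted once, other filters and matches by family.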

Additional observations from a re-analysis of the deposited data

How the results depend on the processing

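No paired analysis was possible because the library numbers carry no treatment or replicate label. Of 72 recomputed values 41 stayed within the interval of the reported value or, for the correlation and the count of genes, within the spread of libraries or 1.5 times. Only the log2 ratio of Trav CPM and the correlation could change sign, and each kept its sign in every setting. The other results are shares, counts, UMIs per 100 Trac UMIs or effective numbers. These cannot be negative, so their sign tests nothing. With each library left out in turn, Trav UMIs per 100 Trac UMIs in TIM-3+ Tex ranged from 150 to 175, the share of TIM-3+ Tex cells with a Trav UMI from 94.1% to 96.7%, the share of cells whose leading gene was the called one from 80.2% to 83.5%, TRAV16N use in TIM-3+ Tex from 10.8% to 40.3%, the effective number of TRAV genes there from 4.91 to 13.3, and the count of members over 2-fold higher there from 3 to 5. Thinning gave 1.002 for the log2 ratio of Trav CPM, 79.1% for TIM-3+ Tex cells with a Trav UMI, 69.2% for cells with a UMI of the called gene and 67.5% for uncalled cells with a Trav UMI. Leiden numbers gave 168 Trav per 100 Trac UMIs. With 1 cell per clonotype the log2 ratio was 0.69 and the Trav to Trac value 136, and with clonotypes counted once TRAV16N use was 14.3% and the effective number 22.6. The first listed chain of every cell gave 27.7% TRAV16N use. Without a filter 10 members were over 2-fold higher, and 3 were over 3-fold higher. A match by family gave 83.5% for the leading gene, a minimum of 2 UMIs gave 88.1%, and 2 Trav UMIs were found in 81.1% of uncalled cells. In alternatives chosen after seeing the data, genes with at least 10% unique stretches matched in 94.9% of cells by UMI and in 92.9% by leading gene, and without clones of 20 or more cells the log2 ratio was 0.63, TRAV16N use 6.59% and the count of members 13 of 49. The cause of these shifts was not tested.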

Other observations

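Some alpha chain sequences recurred across libraries. Of 3710 alpha CDR3 nucleotide sequences with their V and J genes in cells with 1 alpha chain, 84 were found in at least 2 libraries, 12 in at least 3 and 2 in all 4. Those in 3 libraries included sequences of large clones, such as TRAV16N TRAJ49 in 252 cells with 1 alpha chain and TRAV14D-1 TRAJ32 in 74. Both sequences found in all 4 libraries were without a large clone, used TRAJ22 and carried no base outside the germline V and J sequence. The first was found in 10 cells with 10 beta chains and the second in 8 cells with 8 beta chains:
TRAV14D-2 TRAJ22: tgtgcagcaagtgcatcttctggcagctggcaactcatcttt
TRAV3D-3 TRAJ22: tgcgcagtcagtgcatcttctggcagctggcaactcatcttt

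Over the 32 combinations of library and cluster, the genes whose log2(CPM + 10) followed that of Trav16n most closely were Tmie with a Pearson correlation of 0.87, Hic1 and Lgi2 with 0.85 each, and Gcsam and Gm35363 with 0.82 each. These values share libraries and clusters and are given as a description.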
